A study of Homo sapiens with 4 samples.

Results

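RAB GTPase mRNAs were examined in PAR-CLIP data of the G-quadruplex helicase DHX36. They were taken from the deposited gene table by name, as every identifier made of RAB, a number and at most 1 letter, which gave 61 of 26490 genes. All 61 had a protein-coding transcript under the same symbol in the annotation used here. RAB-like genes, regulators and effectors carry other names and are not members.

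RAB proteins are the largest branch of the RAS superfamily of small GTPases. Each cycles between a GTP-bound form, which sits on a membrane and recruits effectors such as tethers and motor proteins, and a GDP-bound form, which is kept soluble by a GDP dissociation inhibitor. Exchange factors load GTP, GTPase-activating proteins end the cycle, and a prenyl group added with the help of an escort protein anchors the protein in the membrane. Individual RABs mark individual compartments, for instance RAB5 the early endosome, RAB7 the late endosome, RAB11 the recycling endosome and RAB1 the path from the endoplasmic reticulum to the Golgi. Many exist as paralogs that share a number and differ in a letter, with similar coding sequences and 3′ untranslated regions (3′ UTRs) of their own.

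PAR-CLIP was performed in HEK293 cells, a human embryonic kidney line, in T-REx Flp-In derivatives that carry 1 tetracycline-inducible transgene in addition to the endogenous gene. One line expressed HA-Flag-tagged DHX36 isoform 2 (FH-DHX36) and the other the tagged isoform 1 with the E335A mutation of the helicase core (FH-DHX36-E335A). They are called wild type and mutant below, although isoform and mutation differ together and their parts cannot be told apart. Both were induced with 500 ng per ml tetracycline for 15 h while newly made RNA took up 4-thiouridine, and were irradiated at 365 nm for 5 min, which crosslinks this base to bound protein. Each line was sampled in 2 biological replicates, but the deposited table gives 1 value per gene and cell line, so no replicate spread could be computed, no difference between the cell lines was tested, and intervals below cover counting error only.

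The table lists clusters, which are groups of overlapping reads with the T-to-C conversions left by a crosslink, the crosslinked reads in them, and NXPM, a score that takes the share of a gene in all crosslinked reads and divides it by mRNA abundance. Summed over genes, crosslinked reads came to 8752127 in the mutant and 2160413 in the wild-type PAR-CLIP, 4.05 times fewer. A gene without a cluster has no reads listed and may still have been bound below the calling threshold. The DHX36 gene itself had 19208 wild-type and 30909 mutant reads, among which those of the transgene cannot be told apart. The identity of the cell line was not checked against marker genes.

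DHX36 is known to unwind G-quadruplexes, folds built from 4 runs of guanines. To show what such sequence looks like on RAB mRNAs, a simple pattern was searched, and the match with the most guanines is printed for members on which the comparisons turn. It asks for 4 or more runs, each of 2 or more guanines, with spacers of 1 to 7 nucleotides. A spacer may be any base, guanine included, so a long unbroken run can count as more than 1 run. Some printed matches, such as that of RAB21, therefore show fewer than 4 separate runs. The pattern was searched on the sense strand only, with matches counted without overlap. Sequences were read from GENCODE 44 transcripts on GRCh37 and are given 5′ to 3′, with T for U and the guanine runs in capitals. The first set lies in the 3′ UTRs of members with many reads and of paralogs compared below.

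RAB21, chr12:72181617-72181631, plus strand: GGGGGtGGGGGaaGG
RAB22A, chr20:56936900-56936923, plus strand: GGtgtctcGGtgcatGGGGaaaGG
RAB5A, chr3:20026098-20026112, plus strand: GGGGtGGGGaGGGGG
RAB5B, chr12:56386614-56386635, plus strand: GGtagaGGtgagaatGGGGaGG
RAB5C, chr17:40277105-40277127, minus strand: GGGGGtGGGtGGGtaaGGGGGGG
RAB1A, chr2:65314207-65314229, minus strand: GGGGcttGGGatatGGctgctGG
RAB1B, chr11:66044134-66044155, plus strand: GGGcgaGGaatgtGGccaGGGG
RAB11A, chr15:66183430-66183445, plus strand: GGttGGGtGGtgctGG
RAB11B, chr19:8468872-8468892, plus strand: GGcagcGGGGGccGGGGcaGG
RAB8B, chr15:63559257-63559277, plus strand: GGGGGGcacaGGGGtGGGtGG
RAB8A, chr19:16244499-16244521, plus strand: GGGGGtGGGtctGGacaagatGG

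The second set lies in coding exons of paralogs, over the codons of the phosphate-binding loop, the glycine-rich stretch near the start of RAB proteins that holds the phosphates of the nucleotide. Glycine codons begin with GG. The pairs are shown to compare the same stretch in paralogs: the lengths of the guanine runs differ between RAB8A and RAB8B and between RAB9A and RAB9B, while RAB4A and RAB4B differ only in the spacers.

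RAB8A, coding sequence, chr19:16222754-16222771, plus strand: GGGGactcGGGGGtGGGG
RAB8B, coding sequence, chr15:63481866-63481882, plus strand: GGcgactcGGGGGtaGG
RAB9A, coding sequence, chrX:13726905-13726922, plus strand: GGagatGGtGGagttGGG
RAB9B, coding sequence, chrX:103080658-103080676, minus strand: GGGtgatGGtGGagttGGG
RAB4A, coding sequence, chr1:229422252-229422275, plus strand: GGttattGGaaatgcaGGaactGG
RAB4B, coding sequence, chr19:41285943-41285966, plus strand: GGtgattGGcagtgcaGGaactGG

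A match was present in the 3′ UTR of 48 of the 61 members, against 64.7% of 19063 canonical 3′ UTRs, in the coding sequence (CDS) of 49, against 84.4% of all coding sequences, and in the 5′ UTR of 43, against 53.8%. Such a loose pattern follows length: 81.5% of 3′ UTRs within 20% of the length of that of RAB35 hold a match, and 100% of the 80 as long as that of RAB21. RAB35 had 16 matches in 2146 nt of 3′ UTR, RAB21 18 in 14613 nt and RAB1B 9 in 1254 nt. The phosphate-binding loop was found in 58 coding sequences, and in 21 members a match lay over its codons. A match starting in the first 150 nt of the coding sequence was held by 42.6% of the members and by 47.2% of all coding sequences. The table gives no cluster positions, so whether any printed site was crosslinked is not known from these data.

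DHX36 clusters were listed on 38 members in the mutant PAR-CLIP and on 26 in the wild-type PAR-CLIP. These are 62.3% (95% Wilson interval 49.7 to 73.4) and 42.6% (31.0 to 55.1) of the members, beside 34.5% and 22.4% of all genes in the table. The genes of the table were not matched to the members in expression or in kind, so these shares do not show that RAB mRNAs were bound more often than mRNAs like them. All 26 members of the smaller set were also in the larger one, where the share of all genes with a cluster in both is 21.4%. No member had a wild-type cluster alone, beside 4.4% of all genes with a wild-type cluster. RAB5C, RAB34, RAB11B, RAB14, RAB9A, RAB2A, RAB24, RAB23, RAB40B, RAB2B, RAB3D and RAB43 had clusters with the mutant protein alone. They make 31.6% of the 38, and the same pattern held for 37.9% of all genes with a mutant cluster.

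No cluster was listed in either PAR-CLIP for 23 members. These were RAB3B, RAB3C, RAB6C, RAB9B, RAB13, RAB15, RAB17, RAB19, RAB20, RAB25, RAB26, RAB27B, RAB29, RAB30, RAB32, RAB33A, RAB37, RAB38, RAB39B, RAB40A, RAB41, RAB42 and RAB44. Several, such as RAB25 of epithelia, RAB27B and RAB38 of secretory and pigment cells, and RAB3C of neurons, are known for expression in particular tissues. Abundance could be recovered from the table only for genes with a cluster, so the level of these 23 mRNAs in HEK293 cells is not known here.

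The bound members carried 6212 crosslinked reads in 67 clusters for the wild type and 34203 reads in 322 clusters for the mutant. A bound member had a median of 132 reads (range 13 to 1316) with the wild type and of 461.5 reads (range 25 to 3957) with the mutant. The medians over all bound genes were 121 and 326. In the mutant PAR-CLIP 17 of the 38 members had 10 or more clusters, beside 22% of all bound genes. Reads were unevenly spread: RAB35 and RAB21 held 35.0% of the member reads with the wild type and 22.3% with the mutant, and the top 10 held 77.6% and 70.6%.

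**Figure D1:**
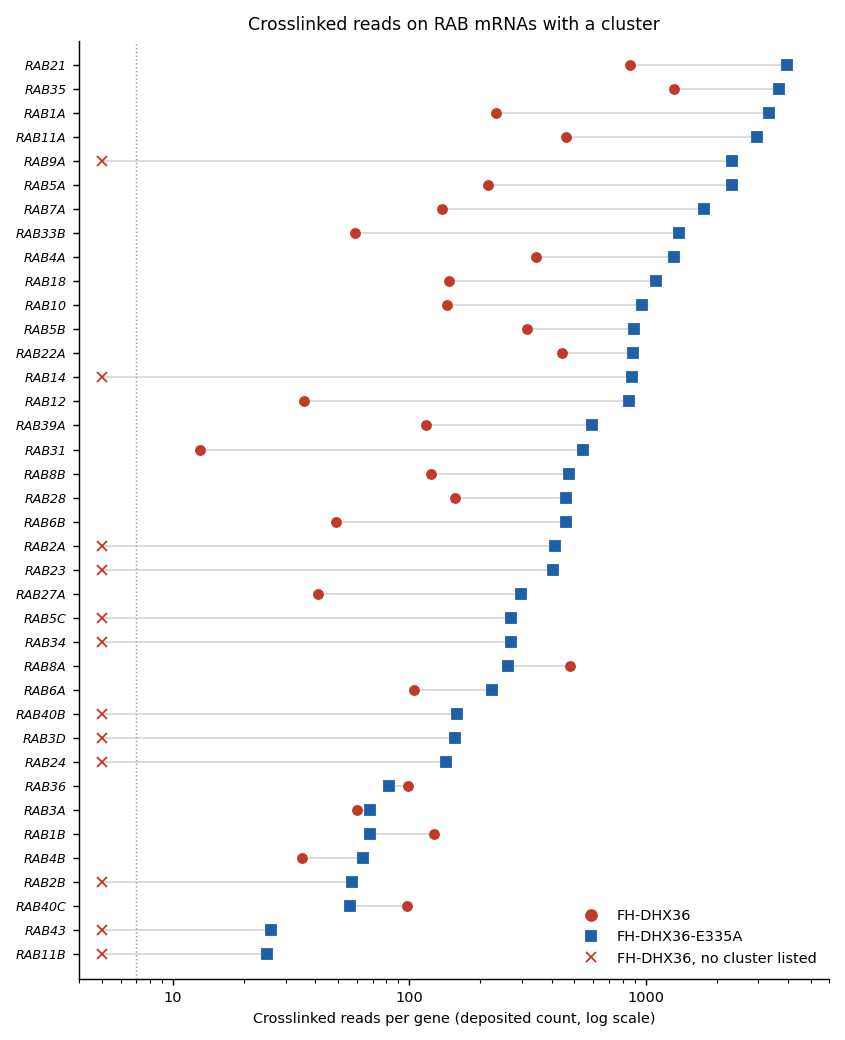
Crosslinked reads (x axis, log scale) of the 38 RAB mRNAs with a cluster, ordered by FH-DHX36-E335A reads. Red circles are FH-DHX36 and blue squares FH-DHX36-E335A, and red crosses left of the dotted line have no FH-DHX36 cluster listed and no value. RAB21 and RAB35 lie at the top in the mutant PAR-CLIP with 3957 and 3682 reads, and RAB8A, RAB36, RAB1B and RAB40C are the members whose circle lies right of the square.

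RABs of early and recycling endosomes held the most reads, with 3997 of the 6212 in the wild-type PAR-CLIP and 17779 of the 34203 in the mutant PAR-CLIP. Of 15 members with this role 9 and 12 had clusters. The sums are over the largest named role group, and RAB21 and RAB35 gave much of them. A bound member of the group had a median of 344 reads with the wild type and 890.5 with the mutant. For RABs of late endosomes and related organelles these were 137, from 1 member, and 1762, from 3. The medians of the remaining groups were lower in both PAR-CLIPs. RAB21, which acts in early endocytosis and integrin traffic, had 857 reads in 5 clusters with the wild type and 3957 reads in 21 clusters with the mutant, rank 551 among 5930 and rank 442 among 9131 bound genes. In the mutant PAR-CLIP 16 of the 21 clusters and 3549 of the reads were in the 3′ UTR, 89.7% (88.7 to 90.6), whereas with the wild type 374 reads were in the 3′ UTR, 123 in the 5′ UTR and 360 outside the 4 categories of the table. The canonical 3′ UTR of RAB21 spans 14613 nt in the later annotation used here, and the table was made with an earlier one.

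RAB35, which acts in fast endosomal recycling and cytokinesis, was the most-read member in the wild-type PAR-CLIP. It had 1316 reads in 8 clusters with the wild type, 1291 of them in the 3′ UTR, and 3682 reads in 14 clusters with the mutant, 2812 of them in the 3′ UTR. This is 98.1% (97.2 to 98.7) and 76.4% (75.0 to 77.7) of its reads. Per kilobase of 3′ UTR the mutant PAR-CLIP gave RAB35 1310 reads and RAB21 243, so the order of these mRNAs turns on this scale. RAB22A, an endosomal sorting RAB, had 442 reads with the wild type, all in the 3′ UTR, and 889 with the mutant, 839 of them in the 3′ UTR.

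The recycling endosome RAB11A had 461 reads with the wild type and 2951 with the mutant. Its 27 mutant clusters were the most of any member, and its 3′ UTR held 83.3% (79.6 to 86.4) and 80.9% (79.4 to 82.3) of the reads. That 3′ UTR holds only 1 match to the guanine pattern in 4149 nt. RAB4A, of fast recycling, had 344 and 1315 reads. With FH-DHX36 299 of these lay outside the 4 categories, whereas with the mutant 799 were in the 3′ UTR, which holds no match. RAB14 had 16 clusters and 878 reads with the mutant and no wild-type cluster, and RAB31 had 542 reads and only 13 with the wild type.

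The RAB5 mRNAs of the early endosome were all bound by the mutant protein. RAB5A had 215 reads with the wild type, all of them in 1 intronic cluster, and 2314 with the mutant, of which 898 were intronic, 869 in the 3′ UTR and 468 in the 5′ UTR. RAB5B had 314 and 892 reads with 284 and 698 in the 3′ UTR. RAB5C had 270 reads with the mutant, in 1 cluster outside the 4 categories, and shares its locus with another annotated coding gene on the same strand, so these reads cannot be placed with certainty.

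Among the 12 RABs of the endoplasmic reticulum and Golgi, 5 were bound in the wild-type PAR-CLIP with 573 reads and 8 in the mutant PAR-CLIP with 5981. RAB1A, needed for transport from the endoplasmic reticulum to the Golgi, had 233 and 3342 reads. Of the latter, 1832 were outside the 4 categories and 1261 in the 3′ UTR. RAB33B, of the Golgi and of autophagosome formation, had 59 and 1390 reads. The former were all outside the categories, whereas 635 of the latter were in the 3′ UTR and 248 in coding sequence. RAB2A had 412 reads with the mutant alone and RAB6A, of retrograde Golgi traffic, had 105 and 225, with the 5′ UTR as its largest class in both PAR-CLIPs, at 72 and 99 reads.

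Of the 6 RABs of late endosomes and related organelles, 3 were bound by the mutant protein and 1 by the wild type. RAB7A, which drives late endosomes towards lysosomes, had 137 reads with the wild type, all in the CDS, and 1762 with the mutant, of which 851 lay in coding sequence and 582 in the 3′ UTR. RAB9A, of transport from late endosomes to the Golgi, had 2326 reads in 10 clusters with the mutant and no wild-type cluster. Of the members with 500 or more mutant reads, RAB9A and RAB14 were the 2 of 17 without a wild-type cluster, beside 9.89% of all such genes. RAB24, linked to autophagy, had 143 reads with the mutant protein, 120 of them in the 3′ UTR, and overlaps MXD3 on the same strand.

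The 12 RABs of secretory vesicles and polarized export included 5 bound in the FH-DHX36 and 6 in the mutant PAR-CLIP. RAB8A, of exocytosis and cilium assembly, had 480 reads with the wild type, of which 380 were intronic and 100 in the CDS, and 263 with the mutant, of which 240 were in the CDS. Its locus overlaps HSH2D on the same strand by whole gene spans, and whether the overlap reaches the intronic reads was not checked. RAB10, of polarized export, had 145 and 968 reads, with 115 and 866 in the 3′ UTR. RAB27A, which docks lysosome-related organelles, had 41 reads in the CDS with the wild type and 296 with the mutant, 225 of them in the 3′ UTR, and its locus overlaps PIGBOS1 on the same strand.

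Members with other or less settled roles included RAB18, of lipid droplets, with 148 and 1112 reads, RAB12 with 36 and 850, and RAB28, a ciliary RAB, with 156 and 462. RAB28 was the other member with most reads in introns in both PAR-CLIPs besides RAB5A, at 156 and 227. RAB39A, linked to phagosomes and autophagy, had 118 reads with the wild type, all in the CDS, and 593 with the mutant, 493 of them in the CDS. RAB23, a negative regulator of Hedgehog signalling, had 404 reads with the mutant protein alone, with 201 in coding sequence and 188 in the 3′ UTR. RAB34, which acts in cilium formation and was the most abundant member with a cluster, had 270 reads with the mutant alone, and 94 were in the CDS.

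The 3′ UTR was the largest annotation class. It held 3379 of 4439 exonic reads with the wild type, or 76.1% (74.8 to 77.4), and 21549 of 27499 with the mutant, or 78.4% (77.9 to 78.8). The same shares over all genes were 51.4% and 71.9%. In the wild-type PAR-CLIP the member share rests in part on RAB35, without which it was 66.3%. Counted in clusters, which do not weight by depth, it was 70.0% and 70.7%, beside 51.5% and 59.2% over all genes.

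Gene by gene the classes were more mixed. With exonic reads, 12 of 22 members in the wild-type PAR-CLIP and 23 of 37 in the mutant PAR-CLIP had the 3′ UTR as the largest exonic class, beside 48.3% and 65% of all such genes. RAB7A, RAB8A, RAB39A and RAB4B were CDS-dominated among exonic reads in both PAR-CLIPs. RAB3A, RAB23, RAB34 and RAB40B had more CDS than 3′ UTR reads with the mutant protein, and RAB18, RAB27A and RAB36 had CDS but no 3′ UTR reads with the wild type. In the wild-type PAR-CLIP the 5′ UTR was the largest exonic class for RAB1A, RAB4A and RAB6A, at 76, 45 and 72 reads. RAB36 had 99 CDS reads with the wild type and 82 3′ UTR reads with the mutant, each in 1 cluster, so that its listed class differed entirely between the PAR-CLIPs.

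A 5′ UTR cluster was listed for 5 of the 26 members with the wild type, beside 18.6% of all bound genes, and for 14 of the 38 with the mutant, beside 20.4%. RAB11B, with 25 reads, and RAB43, with 26 reads, had no reads outside the 5′ UTR, each in 1 cluster, and the 5′ UTR was the largest exonic class also for RAB2A with 97 reads, for RAB28 with 79 and for RAB2B with 22. Only RAB1A and RAB6A had 5′ UTR clusters in both PAR-CLIPs. Intronic clusters were listed for 6 of the 26, beside 24.3% of all bound genes, and for 4 of the 38, beside 23.9%.

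**Figure D2:**
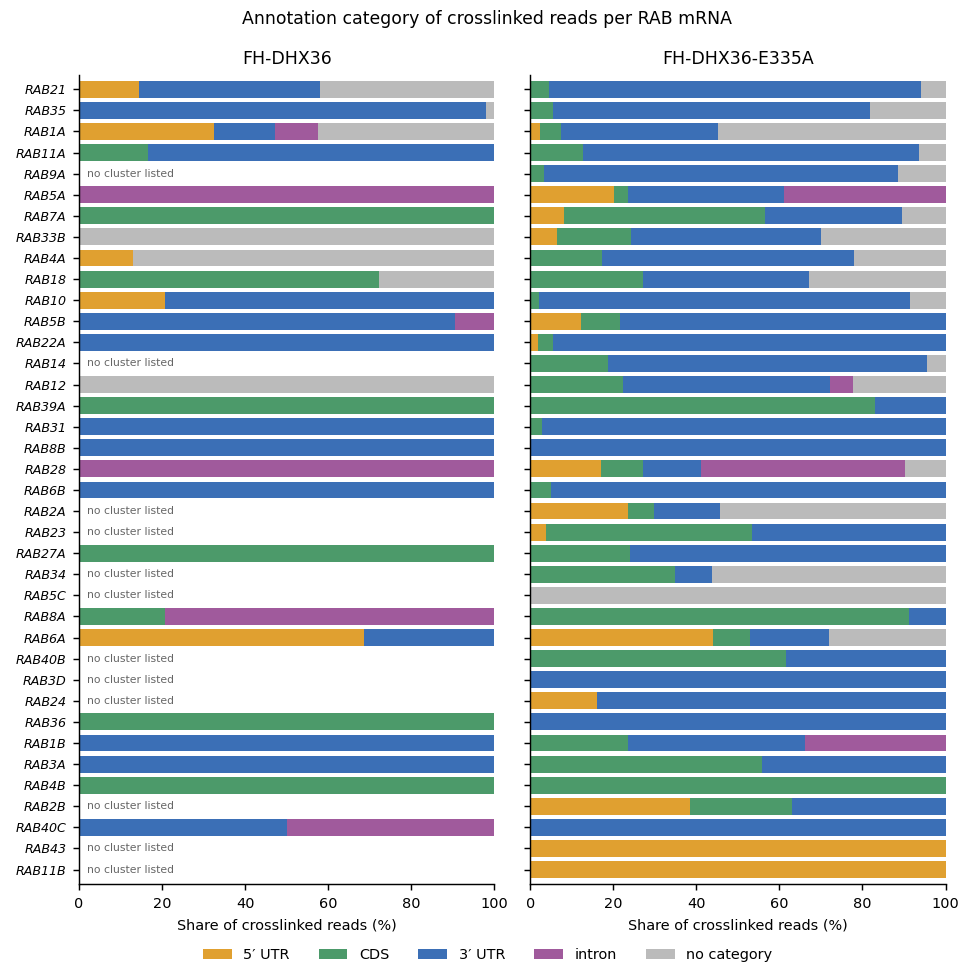
Share of each member's crosslinked reads (x axis, %) by annotation category, with FH-DHX36 on the left and FH-DHX36-E335A on the right, for the 38 members with a cluster, ordered by FH-DHX36-E335A reads. Grey is the remainder outside the 4 categories. RAB22A, RAB31, RAB8B and RAB6B were nearly all 3′ UTR in both, RAB39A and RAB4B were mostly CDS in both, and RAB5C had no read in a category.

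NXPM sets the reads against mRNA level. A bound member had a median NXPM of 9.12 with the wild type (range 0.681 to 111) and of 9.57 with the mutant (range 0.109 to 115), beside medians of 7.84 and 5.66 over all bound genes. Of the 38 members, 7 had NXPM above 50 in the mutant PAR-CLIP, beside 11.2% of all bound genes. RAB33B stood highest at 115, with an abundance of only 1.38 as recovered from the table. RAB21 had 70.6 and RAB35 55.7, at abundances of 6.40 and 7.55, and RAB22A had 55.2 at 1.84.

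RAB6B, a neuronal Golgi RAB, had NXPM of 52.0 with the mutant at an abundance of 1.01. RAB8B had 56.9 at 0.948 and RAB43 51.1 at 0.0571. The gene score of RAB43 comes from 26 reads over a level close to 0, at a locus that overlaps the read-through gene ISY1-RAB43. RAB27A at 26.7, RAB5A at 24.9, RAB1A at 23.6, RAB39A at 21.5 and RAB5B at 20.8 followed among members with an abundance of at least 1. With FH-DHX36 the highest were RAB22A at 111, RAB35 at 80.6, RAB21 at 62.0 and RAB8B at 60.5, so that RAB21, RAB35, RAB22A and RAB8B stood above 50 in both.

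Scores by region are each scaled to all reads of that region, so they order genes within a region and not regions within a gene. In the 3′ UTR the mutant PAR-CLIP gave RAB21 119, RAB8B 107, RAB33B 98.9, RAB22A 97.7, RAB6B 92.6 and RAB35 79.8, and the wild-type PAR-CLIP gave RAB22A 289, RAB35 206, RAB8B 157, RAB21 70.4 and RAB5B 69.7. RAB22A, RAB35, RAB8B and RAB21 were thus among the highest 3′ UTR scores in both. In the CDS the mutant scores of RAB33B and RAB39A were 122 and 106, and the wild-type scores of RAB36, RAB39A and RAB27A were 115, 61.1 and 52.8. In introns RAB5A had 216 with the mutant and 110 with the wild type, RAB28 had 64.8 and 94.9, and RAB8A had 90.2 with the wild type alone. In the 5′ UTR RAB43 had the highest mutant score at 1324, from the 26 reads over a level close to 0, RAB33B and RAB5A followed at 196 and 130, and RAB21 was the highest with the wild type at 112. RAB39A was the member whose CDS score stood above 50 in both PAR-CLIPs.

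Low scores went with abundant mRNAs that had few reads, which follows from how the score is built. RAB34 had NXPM of 0.404 at an abundance of 76.3, RAB5C 0.520 at 59.3, RAB1B 0.186 at 41.7 and RAB11B 0.109 at 26.2, all in the mutant PAR-CLIP. Across the 38 bound members the rank correlation of mutant reads with abundance was 0.102 and with canonical 3′ UTR length 0.286. The number of 3′ UTR clusters and 3′ UTR length had a rank correlation of 0.533 over the 34 members with such clusters. These are correlations across genes, which share the library and its depth, and are given as a description.

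Paralogs that share a number were compared in 24 pairs from 15 lettered families. In the mutant PAR-CLIP both forms were bound in 11 pairs, 1 form in 12 and neither in 1. With FH-DHX36 this was 5, 13 and 6. Crosslinked reads were at least 2-fold apart in 10 of the 11 pairs and at least 10-fold in 3, with a median ratio of 3.30. Among pairs of lettered symbols of any gene in the table with both forms bound, 74.6% were at least 2-fold apart, and 320 such pairs of other genes had a median ratio of 3.65, so the median ratio of RAB pairs was near that of other genes.

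The most unequal pair was RAB11A and RAB11B. RAB11A had 2951 reads in 27 clusters and RAB11B 25 reads in 1 cluster with the mutant, 118-fold apart, although abundance was 20.6 and 26.2. With FH-DHX36 RAB11A had 461 reads and RAB11B no cluster. Their coding sequences are 73.1% identical over 651 aligned nucleotides. The 3′ UTR is 4149 nt long with 35.5% GC in RAB11A and 876 nt with 64.5% GC in RAB11B, and the guanine pattern was found 1 time in the former and 5 times in the latter.

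RAB1A and RAB1B were 49.1-fold apart with the mutant, at 3342 and 68 reads, and only 1.83-fold apart with the wild type, at 233 and 127 reads. RAB1B was the more abundant form at 41.7 against 16.2, so NXPM differed by 126-fold in the mutant PAR-CLIP, at 23.6 and 0.186. Per kilobase of 3′ UTR the mutant PAR-CLIP gave RAB1A 769 reads and RAB1B 23.1, while FH-DHX36 gave 20.7 and 101, so that the order turned. The guanine pattern was found 9 times in the 3′ UTR of RAB1B and 2 times in that of RAB1A.

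RAB4A and RAB4B were 20.5-fold apart with the mutant, at 1315 and 64 reads, and 9.83-fold with the wild type, at 344 and 35 reads, at closely similar abundances of 26.4 and 23.8. All reads of RAB4B were in the CDS. The RAB4B locus is shared with the read-through genes MIA-RAB4B and RAB4B-EGLN2, so its low count is uncertain. Among the RAB5 forms RAB5C was the most abundant at 59.3 and had the fewest reads with the mutant, at 270, against 2314 for RAB5A and 892 for RAB5B at abundances of 10.6 and 4.90. By NXPM RAB5A and RAB5B were close with the mutant, at 24.9 and 20.8, and with the wild type RAB5B was 3.16-fold higher, at 29.6 against 9.37.

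In all reads RAB8A and RAB8B changed order between the PAR-CLIPs. RAB8A had more reads with the wild type, at 480 against 124, and RAB8B more with the mutant, at 473 against 263. Of the 480 wild-type RAB8A reads 380 were intronic. In exonic reads RAB8B was thus higher in both PAR-CLIPs, at 124 against 100 with the wild type. All RAB8B reads were in the 3′ UTR in both, whereas RAB8A had 23 reads there with the mutant and none with the wild type. RAB8B mRNA was 24.2-fold less abundant, so its NXPM was higher in both, 6.24-fold with the wild type and 43.4-fold with the mutant. RAB6A and RAB6B likewise exchanged places, with 105 and 49 reads for the wild type and 225 and 461 for the mutant, and 95.0% of the RAB6B mutant reads were in the 3′ UTR.

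RAB2A had 412 reads and RAB2B 57 with the mutant protein, and neither had a wild-type cluster. RAB3D, a secretory granule RAB whose locus overlaps TMEM205 on the same strand, had 156 reads, all in the 3′ UTR, and RAB3A, of synaptic vesicles, had 68 with the mutant and 60 with the wild type, while RAB3B and RAB3C had none listed. RAB40B had 159 reads and RAB40C 56 with the mutant, and RAB40C had 98 with the wild type, where RAB40B had no cluster. RAB40A, which had no cluster, and RAB40B are 89.6% identical in the coding sequence, and RAB6C, which had none either, and RAB6A 91.7%, so that short reads there may have been assigned to either form or lost. In RAB9A and RAB9B, RAB27A and RAB27B, RAB33A and RAB33B, and RAB39A and RAB39B, 1 form was bound and the other had no cluster in either PAR-CLIP.

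In the 11 pairs bound by the mutant protein, the form with more reads had the higher NXPM in all 11 and the longer canonical 3′ UTR in 10, while it was the more abundant form in 4. NXPM is built from the reads, and the RAB5 forms enter several of these pairs. The same counts were not made for pairs of other genes, so they are a description only. Read against 3′ UTR length, 5 of 7 comparable pairs were at least 2-fold apart, among them RAB8A and RAB8B, which were 1.80-fold apart in all reads. RAB3A and RAB3D, 2.29-fold apart in reads, had 43.7 and 46.8 reads per kilobase of 3′ UTR.

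**Figure D3:**
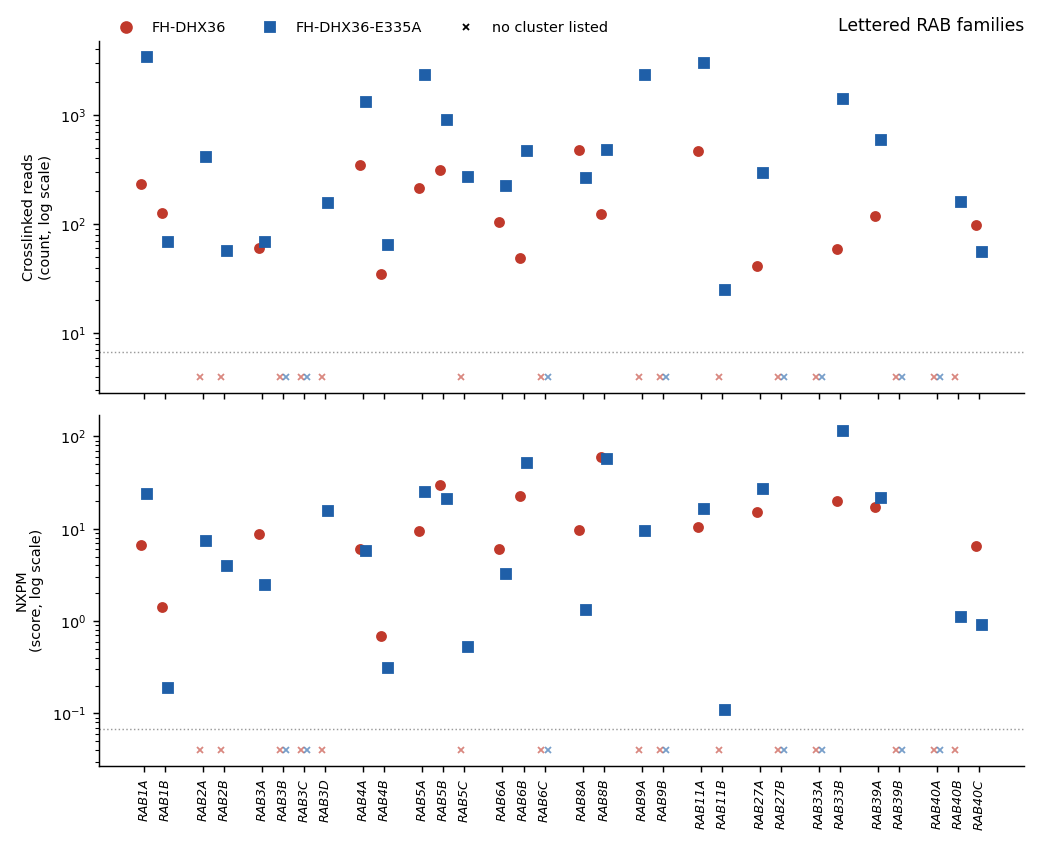
Crosslinked reads (upper panel, log scale) and NXPM (lower panel, log scale) of the lettered RAB families. Red circles are FH-DHX36, blue squares FH-DHX36-E335A, and crosses below the dotted line mark forms with no cluster listed and no value. RAB11A and RAB11B were 118-fold apart in FH-DHX36-E335A reads, and RAB8B stood above RAB8A in NXPM in both PAR-CLIPs.

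The 26 members bound in both PAR-CLIPs were compared by the share each had of its PAR-CLIP's reads, since the totals differ 4.05-fold. For a whole gene this ratio is also that of NXPM, since 1 abundance divides both scores. The median log2 ratio, FH-DHX36-E335A over FH-DHX36, was 0.05, beside 0.12 over 5669 genes. It ranged from -2.92 to 3.36, with 13 members above 0. When all genes were instead scaled to a median ratio of 0, a shift of 0.12, the member median was -0.07, so no common direction is given for these 26. The 12 members with a cluster in the mutant PAR-CLIP alone have no ratio and are not covered.

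Of the 26 members, 7 had at least a 2-fold higher share with the mutant, beside 28.6% of all genes bound in both, and 7 at least a 2-fold higher share with the wild type, beside 24.8%. Both counts are near the background. RAB31 was 10.3-fold higher with the mutant (log2 3.36, 95% exact binomial interval 2.58 to 4.28), from 13 reads with the wild type. RAB12 was 5.83-fold higher and RAB33B 5.82-fold, RAB1A 3.54-fold (log2 1.82, 1.63 to 2.02), RAB7A 3.17-fold, RAB5A 2.66-fold and RAB6B 2.32-fold. The counting interval lay wholly past 2-fold for 6 of these 7, RAB6B being the exception.

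RAB1B was 7.57-fold higher in share with the wild type (log2 -2.92, -3.37 to -2.48), RAB8A 7.39-fold and RAB40C 7.09-fold. RAB40C overlaps WFIKKN1 on the same strand, and 49 of its 98 wild-type reads were intronic. The overlap was read from whole gene spans, and whether it reaches the intronic reads was not checked. RAB36 was 4.89-fold higher, RAB3A 3.57-fold, RAB4B 2.22-fold and RAB22A 2.01-fold. For RAB4B and RAB22A the counting interval reached below 2-fold. RAB8A, RAB36, RAB1B and RAB40C also had more reads outright with the wild type despite its lower total, 4 of 26 beside 10.7% of all genes bound in both. For RAB8A and RAB40C this rests on intronic reads. Their exonic reads were fewer with the wild type, at 100 against 263 for RAB8A and 49 against 56 for RAB40C. The 2-fold call of RAB8A in share also rests on intronic reads, which were 380 of its 480 with the wild type. Its exonic reads, 100 of 1616172 with the wild type and 263 of 6486402 with the mutant, were less than 2-fold apart in share. The counting interval spanned 0 for RAB4A and RAB8B.

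**Figure D4:**
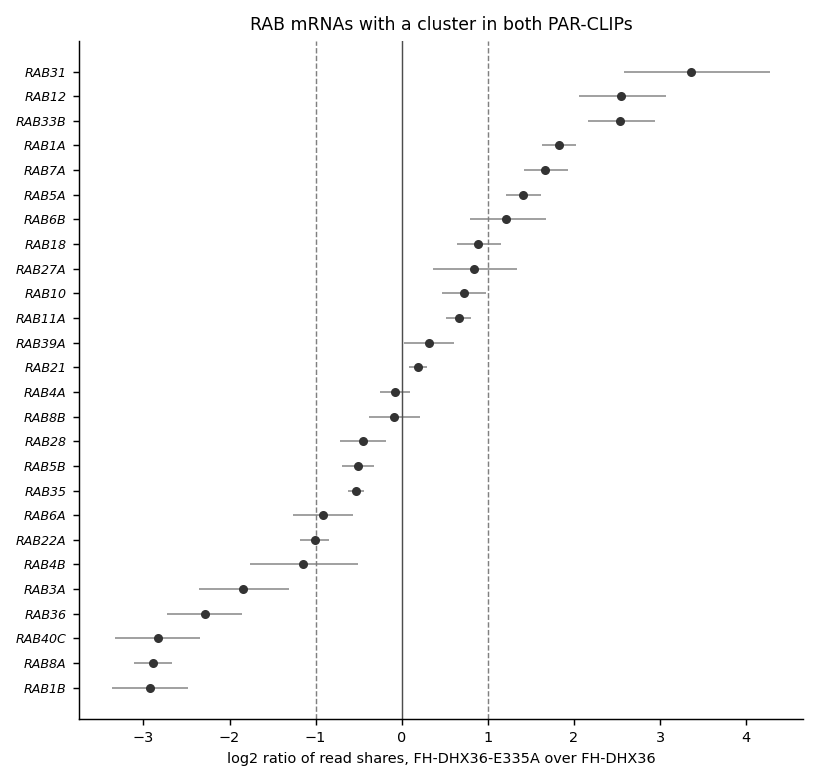
Log2 ratio of read shares, FH-DHX36-E335A over FH-DHX36 (x axis), for the 26 members with a cluster in both PAR-CLIPs. Bars are 95% exact binomial intervals that cover counting error only, and dashed lines mark 2-fold. RAB31 at 3.36 and RAB1B at -2.92 are the ends, and 12 members lie within 2-fold.

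The members with a higher share in either PAR-CLIP differed in the base composition of the 3′ UTR, which was looked at after the ratios were seen. The 7 members higher with the mutant had a median GC content of 34.0% (31.5 to 47.8) in the canonical 3′ UTR, the 12 within 2-fold 35.5% (33.7 to 57.5), and the 7 higher with the wild type 60.3% (38.4 to 63.6). RAB22A, at 38.4%, was the lowest of the last group, and the other 6 lay at 53.0% or above, higher than every member of the first. The ratio counts all reads of a gene, intronic ones included, on which the place of RAB8A in the last group rests. Not every member had 3′ UTR reads. With the wild type RAB8A, RAB36 and RAB4B of the last group and RAB5A, RAB7A, RAB12 and RAB33B of the first had none. The GC content is thus that of the whole 3′ UTR and not of bound sites. The rank correlation of the log2 ratio with 3′ UTR GC content was -0.63 over the 26 members. The same order was seen over all genes, with medians of 37.5%, 41.9% and 49.8% and a rank correlation of -0.36 over 5208 genes, so it is not particular to RAB mRNAs. With the GC content of the coding sequence the rank correlation was -0.39 over the members and -0.30 over 5347 genes.

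**Figure D5:**
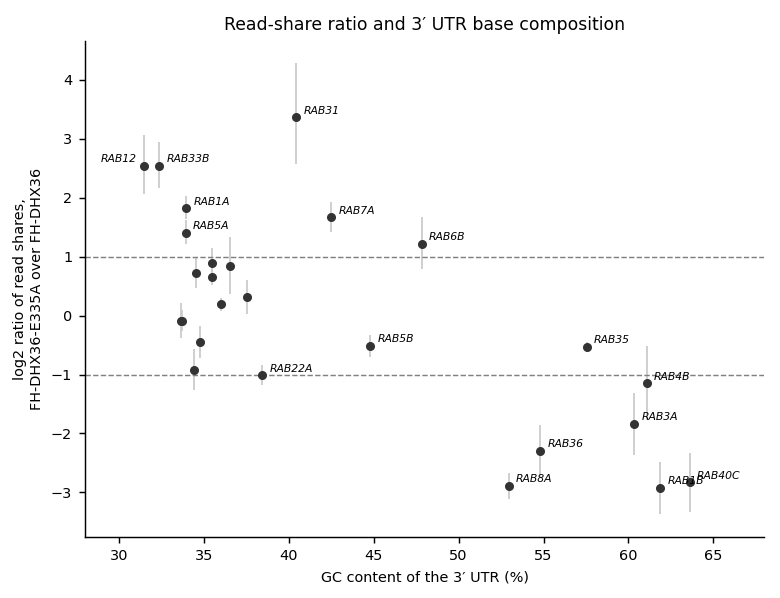
Log2 ratio of read shares, FH-DHX36-E335A over FH-DHX36 (y axis), against GC content of the canonical 3′ UTR (x axis, %) for the 26 members with a cluster in both PAR-CLIPs. Bars are 95% exact binomial intervals, dashed lines mark 2-fold, and members past 2-fold or above 44% GC are named. RAB1B and RAB40C lie at the lower right at 61.9% and 63.6% GC, and RAB12 and RAB33B at the upper left at 31.5% and 32.4%.

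The guanine pattern was present in most members whether bound or not. It was found in the 3′ UTR of 23 of the 26 members bound in both PAR-CLIPs, of 8 of the 12 bound with the mutant alone and of 17 of the 23 without a cluster, beside 75.3% of all genes bound in both and 65.6% of those bound with the mutant alone. The 7 bound members with no match in the canonical 3′ UTR, which were RAB2A, RAB4A, RAB12, RAB14, RAB23, RAB34 and RAB39A, all had 3′ UTR clusters with the mutant. So did 34 of all 38 members bound by the mutant, so this is near the share of the family. RAB11B, RAB5C and RAB4B, at 5, 4 and 2 matches, had no 3′ UTR cluster. RAB43 had 25 matches in 3524 nt at an abundance of 0.0571 and no 3′ UTR cluster.

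Across the 26 members the rank correlation between the PAR-CLIPs was 0.601 for reads and 0.713 for NXPM, beside 0.630 and 0.789 over all 5669 genes. Both NXPM values share their abundance, which raises the correlation by construction.

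Genes that act on RABs were set beside them. Of 54 listed regulators and effectors, 43 were bound by the mutant and 23 by the wild type, 79.6% (67.1 to 88.2) and 42.6% (30.3 to 55.8), beside 34.5% and 22.4% of all genes, which were not matched to this list either. All 12 GTPase-activating proteins on this list, which does not hold every such protein, were bound by the mutant protein and 5 by the wild type. Of 16 exchange factors 11 and 3 were bound, of 20 effectors 16 and 12, of the 4 escort and prenylation genes 3 and 2, and of the 2 GDP dissociation inhibitors GDI2 in both.

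CHML, an escort protein for prenylation, had 2338 reads in 32 clusters with the mutant protein and 43 in 2 clusters with the wild type. BICD2, a dynein adaptor recruited by RAB6, had 1647 and 2958 reads and NXPM of 80.8 and 588. Among regulators bound in both, 10 of 23 had at least a 2-fold higher share with the mutant and 4 with the wild type, beside 28.6% and 24.8% of all genes bound in both.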

How the data were processed

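The authors aligned PAR-CLIP reads to hg19. PARalyzer, run through PARpipe with default settings, gave the clusters, and GENCODE v19 their annotation category. Their processing notes list bcl2fastq 2.17.1, and aligner versions are not given in the sources used here. Raw crosslinked read counts and numbers of clusters were deposited by the authors for each gene and category, with 1 value for each cell line. The study describes its binding sites as those shared by both biological replicates, but how the replicates enter the values of this table is not stated. NXPM was deposited by the authors as a normalized score, the crosslinked reads scaled to the PAR-CLIP total over mRNA abundance. The deposited values followed scaled reads divided by abundance plus 0.001, and abundance was recovered from this for genes with a cluster. Regional scores are scaled to the reads of that region and were not compared between regions. Reads outside 5′ UTR, CDS, 3′ UTR and intron were taken as the remainder of the gene total. No column belonged to another sample (0 columns).

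Reads of a gene were divided by the total of the PAR-CLIP to compare cell lines, and a 2-fold difference counted as called, since no replicate test was possible. Shares carry 95% Wilson intervals and ratios 95% exact (Clopper-Pearson) binomial intervals. PCR copies are not independent molecules, so these cover counting error only. Region lengths, coordinates and sequences were taken from the canonical transcripts of GENCODE 44 on GRCh37 (the hg19 build, annotated later than in the table), and checked against the genome. Coding sequences of paralogs were aligned end to end. Python 3.11.15, pandas 2.3.3, scipy 1.17.1, Biopython 1.88 and samtools 1.23.1 were used. The computation was tested on simulated data. Alternatives were other filters, scalings, region measures, member rules and guanine patterns.

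Named with values were the 10 members with the most reads in each PAR-CLIP, the 10 with the highest FH-DHX36-E335A NXPM at an abundance of at least 1, both forms of lettered families with a bound member, and members whose largest exonic class was not the 3′ UTR. RAB10, RAB12, RAB14, RAB24, RAB31 and RAB36, the genes CHML, BICD2 and GDI2, and the comparison with GC content were chosen after values were seen. The members and lists were chosen with earlier results of these data known. One sequence match and one comparison list are not reported here.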

Additional observations from a re-analysis of the deposited data

How the results depend on the processing

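Of 46 alternatives, 36 stayed within the range of the value as reported. The median log2 ratio of the members, 0.05 and close to 0, changed sign within that range, to -0.07 when scaled to the median of ratios and to -0.08 with at least 20 reads in each PAR-CLIP. Requiring at least 2 clusters left 16 of the 26 members with FH-DHX36. The 3′ UTR share of exonic reads, 76.1% in the wild-type and 78.4% in the mutant PAR-CLIP, became 70.0% and 70.7% when clusters were counted and 66.3% and 75.7% without the member with most reads, and the median of per-gene shares was 69.1% with the mutant. The median FH-DHX36 NXPM of 9.12 became 22.8 for the 3′ UTR score, which by its construction is scaled to 3′ UTR reads alone and covers the 14 members that have them. Paralog pairs at least 2-fold apart went from 10 to 5 with 3′ UTR reads per length and to 3 in the FH-DHX36 PAR-CLIP, where fewer pairs could be compared, and 3′ UTRs with a guanine match from 48 to 7 with runs of at least 3. The 7 and 7 members past 2-fold ranged from 6 to 8 over the scalings and filters. No paired analysis was possible because the deposited columns carry no replicate number, and for the same reason no replicate could be left out. With 2160413 reads in the FH-DHX36 table, a member without a cluster there may have been below detection.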
